A study of Mus musculus with 6 samples.

Results

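Mpo, Elane, Prtn3, Ctsg and Ms4a3 are genes of the azurophil granule and of the promyelocyte stage at which neutrophil precursors make it. They were taken by symbol from the RNA-seq count matrix of splenic Treg cells, and all 5 were found among its 24421 genes. Splenic CD4+YFP+ cells were sorted from C57BL/6 female mice 8 to 11 weeks old, and 1 library was sequenced per mouse. WT mice (n = 3) carried Foxp3Cre alone, and KO mice (n = 3) carried Foxp3Cre together with miR-142fl/fl, which removes miR-142 where Cre is made. Both groups carried the same Cre, fused to YFP and driven by the endogenous Foxp3 promoter, and the cells were not treated after sorting. The comparison asks which transcripts differ between Treg cells with and without miR-142. The 5 genes were chosen from their measured values in these same libraries, so their differences between WT and KO are given as a description with no test. Every library was read singly, and S100a8 and S100a9, picked because they were high in KO replicate 1 alone, were set beside the 5 genes.

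Neutrophils fill their granules in the order in which they mature. Promyelocytes transcribe the genes of the azurophil (primary) granule and shut them off before the cell becomes a myelocyte, and the specific (secondary) granule genes and then S100a8 and S100a9 follow. Mature neutrophils hold azurophil proteins but little of their mRNA, and are rich in S100a8 and S100a9 mRNA. Treg cells are not known as a source of azurophil enzymes.

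Mpo encodes myeloperoxidase, which makes hypochlorous acid from hydrogen peroxide and chloride. In GRCm38 with GENCODE annotation it lies on chromosome 11 from 87793581 to 87804413 on the + strand, where it overlaps the annotated Gm11505. Elane encodes neutrophil elastase (chromosome 10, 79886247 to 79888215, + strand), and Prtn3 encodes proteinase 3 (chromosome 10, 79874476 to 79883174, + strand), its neighbour 3.07 kb away. Ctsg encodes cathepsin G (chromosome 14, 56099881 to 56102574, - strand). Ms4a3 encodes a membrane-spanning protein of granulocyte and monocyte precursors (chromosome 19, 11629496 to 11640851, - strand). S100a8 and S100a9 encode the subunits of calprotectin, the main cytosolic protein of mature neutrophils, and lie on chromosome 3.

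The stretches shown here come from RefSeq promoter windows (GRCm38.p6), which reach from 250 bases before to 50 bases after each RefSeq start and were found for all 7 genes. They are shown because the letters GGAAGT, a core recognized by the ETS factor PU.1 of myeloid cells, stood in the window of each of the 5 genes. GGAAGT and TATAA are in capitals, and each line runs 5′ to 3′ on the strand of the gene.
Elane, chr10:79886212-79886311 (+): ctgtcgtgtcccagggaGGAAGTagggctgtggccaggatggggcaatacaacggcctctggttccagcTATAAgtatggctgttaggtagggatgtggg
Prtn3, chr10:79879567-79879666 (+): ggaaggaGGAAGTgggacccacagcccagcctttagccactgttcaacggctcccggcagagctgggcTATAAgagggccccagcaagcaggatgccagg
Mpo, chr11:87793535-87793594 (+): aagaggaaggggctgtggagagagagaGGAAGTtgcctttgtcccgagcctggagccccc
Ctsg, chr14:56102747-56102806 (-): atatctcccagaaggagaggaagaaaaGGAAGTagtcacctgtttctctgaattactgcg
Ms4a3, chr19:11640874-11640933 (-): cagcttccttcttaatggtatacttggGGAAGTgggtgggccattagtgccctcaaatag

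Elane and Prtn3 held GGAAGT at -83 and -93 from the RefSeq start and TATAA at -31 and -32. In Mpo and Ctsg, GGAAGT lay farther upstream, at -222 and -205, and in Ms4a3 at -55. The GENCODE models of Mpo and Prtn3 begin upstream of these RefSeq starts. Of 32851 windows, searched on both strands, 23.8% held GGAAGT and 24.9% held TATAA. The windows of S100a8 and S100a9 held GGAAGT too, at -172 and -188, so these letters did not set the 5 genes apart from that pair. TTNCNNAA, a motif of the C/EBP factors that drive granulocyte genes, stood in 40.7% of all windows, in those of Ms4a3, S100a8 and S100a9, and in none of the 4 enzymes. In Ms4a3, one of its matches overlapped GGAAGT. The motifs were chosen after the values and sequences were seen, and no test was made of them.

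miR-142 acts by pairing of its seed, bases 2 to 8, with sites in 3′ UTRs, so its sequences are shown with the seed in capitals. Both RefSeq hairpin arms lie on the + strand of chromosome 11, as Mpo does.
mmu-miR-142a-5p, chr11:87756867-87756887 (+): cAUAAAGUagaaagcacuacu
mmu-miR-142a-3p, chr11:87756903-87756925 (+): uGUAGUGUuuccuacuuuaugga
The sites that match these seeds are ACTTTAT for the 5p arm and ACACTAC for the 3p arm, and AACACTA matches the 3p arm with the seed moved by 1 base. In the GENCODE 3′ UTRs of Mpo (348 bases), Elane (98 bases), Prtn3 (198 bases), Ctsg (78 bases) and Ms4a3 (162 bases), none of the 3 sites was found. Of 21153 genes with a 3′ UTR, 14.7% held ACTTTAT, 6.49% held ACACTAC and 9.37% held AACACTA. The S100a8 and S100a9 3′ UTRs (68 and 114 bases) held none either.

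Total counts were between 13883069 and 24042994 per library, and a count of 3, the most that a true value behind 0 counts would commonly reach, was worth 0.125 to 0.216 CPM (counts scaled to the library total). Intervals given with single values are exact 95% intervals that cover counting error only, since PCR reads are not independent molecules. KO replicate 1 stood apart from the other libraries in marker genes of several other cell types. The 10 listed red pulp macrophage genes summed to 2761 CPM there, to 206 and 167 CPM in KO replicates 2 and 3, and to 76.2 to 85.9 CPM in WT. The 12 monocyte genes summed to 2033, 429 and 436 CPM in KO replicates 1, 2 and 3 and to 281 to 324 CPM in WT. For both lists KO replicates 2 and 3 were thus above WT too. For the 9 B cell genes they were below it, with 242, 8.07 and 11.9 CPM in KO and 15.5 to 23.2 CPM in WT. As a single gene, C1qa had 5079, 86 and 4 counts in KO replicates 1, 2 and 3 and 1, 6 and 7 in WT. The 10 Treg and CD4 T cell genes summed to 7445 to 9760 CPM in all 6 libraries, and Foxp3, the defining factor of Treg cells, was at 562 to 713 CPM. Mir142b, annotated antisense to the targeted Mir142, had 147, 101 and 105 counts in WT and 7, 5 and 5 in KO, a log2 fold change of -4.07 in edgeR's quasi-likelihood F (QLF) test with Benjamini-Hochberg adjustment (FDR = 0.00132). Mir142 itself had 0 counts throughout.

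Mpo had 13, 10 and 1 counts in WT replicates 1, 2 and 3, and 303, 82 and 470 counts in KO replicates 1, 2 and 3. On the CPM scale these were 0.839, 0.416 and 0.0562 in WT and 16.3, 5.91 and 31.7 in KO. No KO library overlapped the WT range, with the highest value in KO replicate 3 and the lowest in KO replicate 2. The group means were 18.0 ± 13 CPM in KO and 0.437 ± 0.392 CPM in WT (SD, n = 3 each). Pooled over libraries, the KO level was 43.2 times the WT level (95% counting interval 28.8 to 67.7), and without KO replicate 1 it was 45.9 times (30.5 to 72.3).

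Elane had 3, 0 and 0 counts in WT replicates 1, 2 and 3, and 135, 16 and 63 counts in KO replicates 1, 2 and 3. The KO values were 7.26, 1.15 and 4.25 CPM, and WT replicate 1 had 0.194 CPM. Elane alone among the 4 enzymes had its highest level in KO replicate 1 instead of KO replicate 3. The mean was 4.22 ± 3.05 CPM in KO and 0.0645 ± 0.112 CPM in WT (SD, n = 3 each), and the pooled ratio was 86.4 (29.2 to 422), or 52.6 (17.3 to 260) without KO replicate 1.

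Prtn3 had 4, 0 and 0 counts in WT and 74, 7 and 105 in KO replicates 1, 2 and 3, so that its KO levels were 3.98, 0.504 and 7.08 CPM. KO replicate 3 was the highest library. The counting interval of KO replicate 2 (0.203 to 1.04 CPM) overlapped that of WT replicate 1 (0.0703 to 0.661 CPM), so these libraries could not be separated for Prtn3 at this depth. The mean was 3.86 ± 3.29 CPM in KO and 0.0861 ± 0.149 CPM in WT (SD, n = 3 each), and the pooled ratio was 56.3 (21.6 to 209), or 55.9 (21.2 to 209) without KO replicate 1. Prtn3 overlaps the gene Lppr3 on the opposite strand, and the counts were made without regard to strand. Lppr3 was at 9.68 to 28.7 CPM in the 6 libraries and was highest in WT replicate 3, where Prtn3 had 0 counts.

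Ctsg had 2, 0 and 0 counts in WT and 34, 7 and 74 in KO replicates 1, 2 and 3, or 1.83, 0.504 and 4.99 CPM in KO. It too was highest in KO replicate 3, and its counting intervals in KO replicate 2 (0.203 to 1.04 CPM) and WT replicate 1 (0.0156 to 0.466 CPM) overlapped as well. The mean was 2.44 ± 2.31 CPM in KO and 0.043 ± 0.0745 CPM in WT (SD, n = 3 each), with a pooled ratio of 69.7 (18.9 to 582), or 80.9 (21.7 to 679) without KO replicate 1. Ms4a3 was the lowest of the 5, with 0 counts in every WT library and 18, 3 and 18 counts in KO replicates 1, 2 and 3. Its KO values were 0.968, 0.216 and 1.21 CPM. Pooled, the KO level was 15.8 times the WT level when WT was set at a limit of 3 counts over the group. That ratio leaves out the counting error of the KO counts. The 3 counts of KO replicate 2 are no more than that limit.

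**Figure D1:**
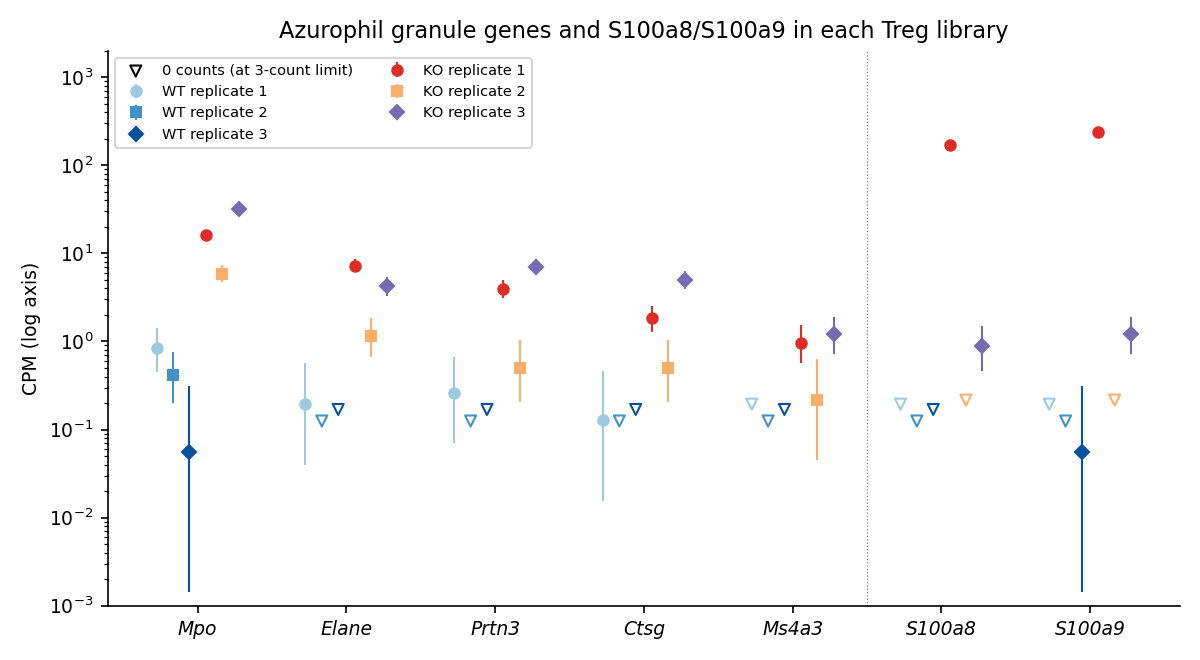
CPM on a log axis of the 5 azurophil genes and of S100a8 and S100a9 in each of the 6 libraries, with exact 95% counting intervals, and open triangles at the 3-count limit for libraries with 0 counts. The 3 KO libraries lie above the 3 WT libraries for each of the 5 azurophil genes, whereas S100a8 and S100a9 stand high in KO replicate 1 alone.

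All 5 genes thus had a higher value in each KO library than in any WT library. For Prtn3, Ctsg and Ms4a3, however, the counting interval of KO replicate 2 overlapped those of WT replicates 1 and 3. For Ms4a3 it overlapped that of WT replicate 2 as well. Over all 11658 genes tested, 11.6% were called higher and 7.27% lower in KO by the QLF test at an FDR under 0.05, but no reading against these shares was made because the 5 genes were picked on this difference. A gene was tested where at least 3 libraries exceeded 1 CPM. Mpo and Elane met this through their 3 KO libraries, and 0 WT libraries. Prtn3 and Ctsg exceeded 1 CPM in 2 libraries and Ms4a3 in 1, so these 3 were not tested, and without KO replicate 1 none of the 5 was. The fitted log2 fold changes were 5.45 for Mpo and 6.21 for Elane, and that of Elane depends on its few WT counts. Within KO, the highest library was 5.37 times the lowest for Mpo, 6.3 times for Elane, 5.62 times for Ms4a3, 9.9 times for Ctsg and 14.0 times for Prtn3. In bulk libraries, fewer cells of a type and less RNA per cell cannot be told apart, and neither can many cells with little of a transcript and few cells with much.

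Per kb of exon, which lets genes be compared, Elane led in KO replicate 1 with a level of 7.38 CPM per kb, followed by Mpo (4.76), Prtn3 (2.3), Ctsg (1.77) and Ms4a3 (0.514). In KO replicate 3 the level of Mpo was the highest at 9.26 CPM per kb, and Ctsg (4.83), Elane (4.32) and Prtn3 (4.09) followed close together, with Ms4a3 at 0.645. In KO replicate 2 Mpo had 1.73 CPM per kb and Elane 1.17, above Ctsg (0.488), Prtn3 (0.291) and Ms4a3 (0.115). The order of the levels thus changed among KO libraries, although Ms4a3 was last in all 3. S100a8 and S100a9 reached levels of 246 and 459 CPM per kb in KO replicate 1, but 1.26 and 2.33 CPM per kb in KO replicate 3, within the range of the azurophil genes there.

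The make-up of the enzyme transcripts also differed among KO libraries. Elane supplied 55.6% of the counts of the 3 serine proteases Elane, Prtn3 and Ctsg in KO replicate 1 (exact Clopper-Pearson 95% interval 49.1 to 61.9) and 53.3% in KO replicate 2 (34.3 to 71.7). In KO replicate 3 its share was 26.0% (20.6 to 32.0), an interval that does not reach those of the other KO libraries. Ctsg made up 14.0% (9.89 to 19.0) in KO replicate 1 and 30.6% (24.8 to 36.8) in KO replicate 3, and Prtn3 30.5% (24.7 to 36.7) and 43.4% (37.1 to 49.9). Mpo supplied 55.5% of the counts of the 4 enzymes in KO replicate 1 (51.2 to 59.7), 73.2% in KO replicate 2 (64.0 to 81.1) and 66.0% in KO replicate 3 (62.4 to 69.5), so its share too was lower in KO replicate 1 beyond counting error. WT replicate 1, the WT library with the most such counts, had 13 of 22 from Mpo (59.1%, 36.4 to 79.3).

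S100a8 and S100a9 were picked for another pattern, a high level in KO replicate 1 alone. S100a8 had 0 counts in all WT libraries and in KO replicate 2, 13 counts in KO replicate 3 and 3177 counts in KO replicate 1. S100a9 had 0, 0 and 1 counts in WT replicates 1, 2 and 3, and 4459, 0 and 18 counts in KO replicates 1, 2 and 3. Their groups overlapped, because KO replicate 2 had no counts of either. In the same library Mpo had 82 counts and Elane 16, and a count of 0 allows a level of up to 0.216 CPM.

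The 4 enzymes made up 546 of 8182 counts when set against their own counts plus those of S100a8 and S100a9 in KO replicate 1, or 6.67% (6.14 to 7.24). They made up 112 of 112 counts in KO replicate 2 (100%, 96.8 to 100) and 712 of 743 counts in KO replicate 3 (95.8%, 94.1 to 97.1). KO replicates 2 and 3 were on the opposite side of an even split from KO replicate 1. That follows from how the S100 pair was picked, so the shares are a description with no test. In WT the enzymes made up 22 of 22, 10 of 10 and 1 of 2 counts in replicates 1, 2 and 3, so what few WT counts there were fell on Mpo and the proteases in WT replicates 1 and 2. With the specific granule genes Ltf, Camp, Ngp and Lcn2 added to the S100 pair, the share was 3.55% in KO replicate 1, 96.6% in KO replicate 2 and 91.9% in KO replicate 3. In WT it was then 81.5%, 55.6% and 20.0%, from 27, 18 and 5 counts.

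**Figure D2:**
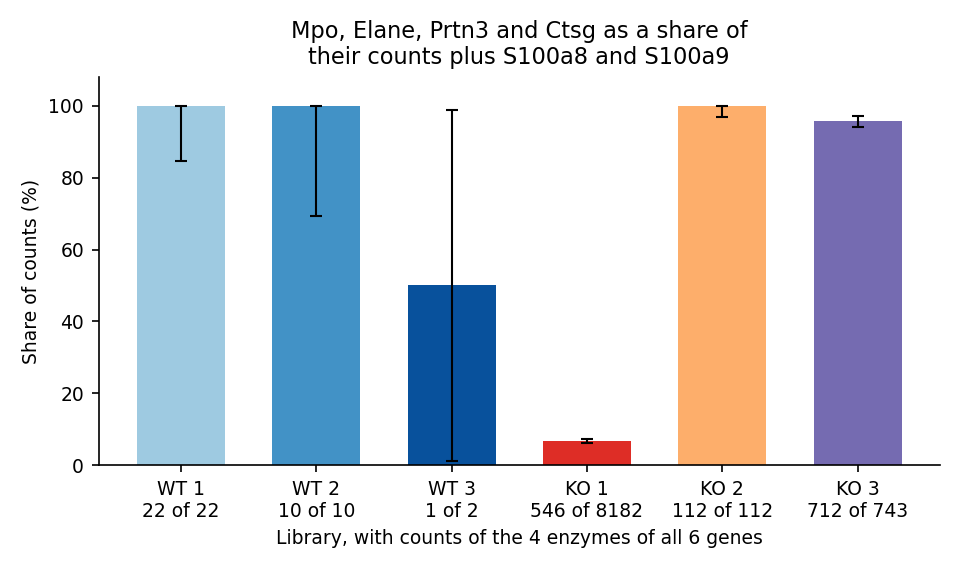
Counts of Mpo, Elane, Prtn3 and Ctsg as a percentage of their counts plus those of S100a8 and S100a9 in each library, with exact Clopper-Pearson 95% intervals and the counts under each bar. The bar of KO replicate 1 stands at 6.67%, and those of KO replicates 2 and 3 at 100% and 95.8%. S100a8 and S100a9 were picked for being high in KO replicate 1 alone.

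The ratio of KO replicate 3 to KO replicate 1 was read gene by gene on the CPM scale, with an exact interval for counting error. It was 1.95 for Mpo (1.68 to 2.26), 1.78 for Prtn3 (1.31 to 2.43) and 2.73 for Ctsg (1.8 to 4.23), and 0.586 for Elane (0.427 to 0.795). The ratio of Ms4a3, 1.25, had an interval from 0.616 to 2.56, so a difference between these libraries was not detectable at this depth. For S100a8 it was 0.00513 (0.00273 to 0.00879) and for S100a9 0.00507 (0.003 to 0.00802). Mpo, Prtn3 and Ctsg therefore stood higher in KO replicate 3 than in KO replicate 1 and Elane lower, while the S100 pair was lower by a far larger factor. These are values of single libraries, and this contrast between them is the one by which the genes were chosen.

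Other neutrophil genes were read the same way where KO replicate 1 or 3 had at least 10 counts. The 10 specific granule genes, which follow the azurophil genes in maturation, all had ratios under 0.1, between 0 and 0.0349. Among them, Ltf (lactoferrin) had 2382, 2 and 14 counts in KO replicates 1, 2 and 3, Ngp (neutrophilic granule protein) 3006, 1 and 9, and Lcn2 (lipocalin 2) 1177, 0 and 6. Of the 20 mature neutrophil genes, which include S100a8 and S100a9, 15 had ratios under 0.1 and 8 had 0 counts in KO replicate 3. None of these 30 genes was higher in KO replicate 3 than in KO replicate 1, whereas Mpo, Prtn3 and Ctsg were, and Ms4a3 had 18 counts in each. The azurophil genes were chosen by this contrast. Summed, the 10 specific granule genes were at 556 CPM in KO replicate 1, 1.22 and 3.71 CPM in KO replicates 2 and 3 and 0.394 to 0.582 CPM in WT, whereas the 5 azurophil genes were at 30.3, 8.28 and 49.2 CPM in KO and 0.0562 to 1.42 CPM in WT.

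**Figure D3:**
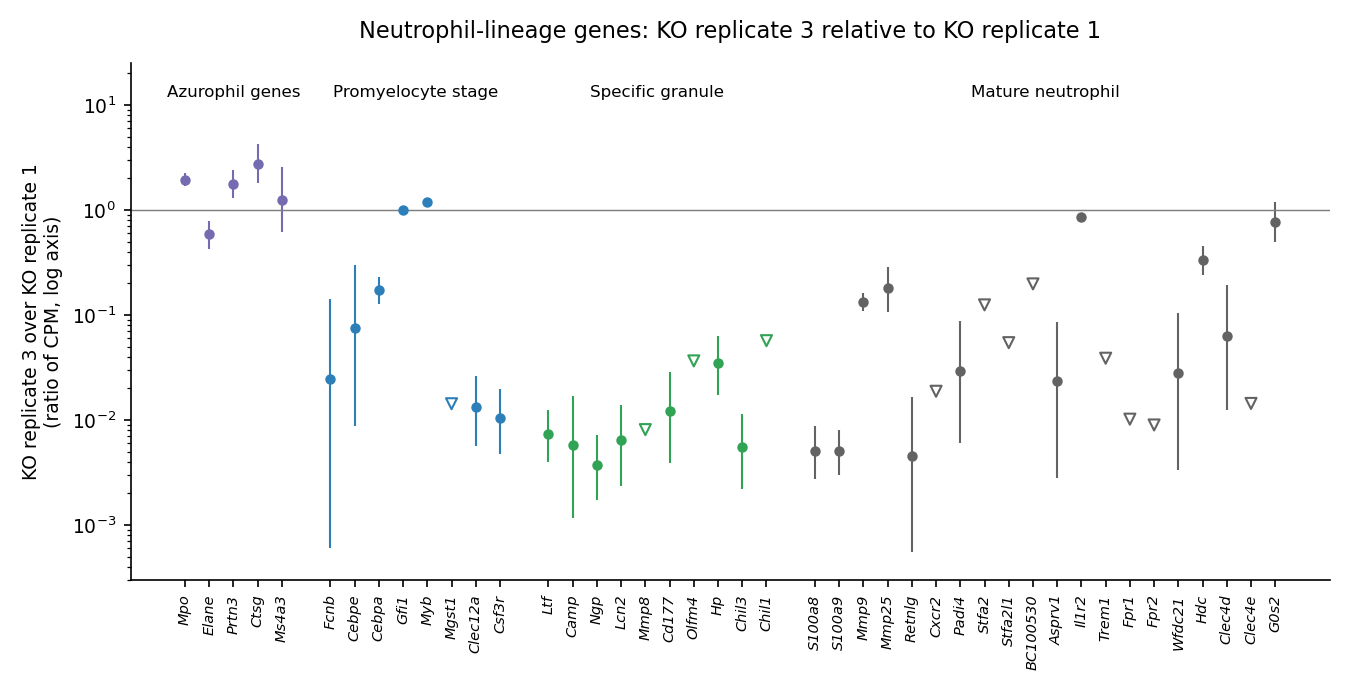
Ratio of CPM in KO replicate 3 to CPM in KO replicate 1 on a log axis for azurophil, promyelocyte-stage, specific granule and mature neutrophil genes with at least 10 counts in either library. Bars are exact 95% counting intervals, and open triangles set KO replicate 3 at 3 counts where it had 0. The azurophil genes lie between 0.586 and 2.73, and all specific granule genes lie under 0.1.

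The azurophil genes were also set in a wider view, drawn after the values were seen. Of 558 genes with at least 30 counts in KO and a WT level under 0.1 of the KO level, 400 (71.7%) were over 10 times higher in KO replicate 1 than in KO replicate 3, and 39 (6.99%) were higher in KO replicate 3. All 5 azurophil genes were among the 558, and Mpo, Prtn3, Ctsg and Ms4a3, the last within its counting interval, were among the 39. Elane was not, and most of the 39 were other genes, such as Bzrap1, Stra6, Enah, Cyp11a1 and Tph1. No test was made of this, since the genes were chosen for it.

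Other genes of the promyelocyte stage were mixed. Of 10 listed, 3 passed the filter and 1 was called higher in KO, with a median log2 fold change of 0.50 against 0.02 over all genes tested. Myb, a transcription factor of immature blood cells that activated T cells also express, was at 71.4, 62.6 and 67.8 CPM in WT and 218, 314 and 260 CPM in KO. It rose by a log2 fold change of 2.06 (SE 0.15, QLF FDR = 0.00064), and was called under all 13 alternatives, with an FDR from 4.94e-37 to 0.00857. Gfi1, a repressor that promyelocytes need, did not pass the test (QLF FDR = 0.0791). Cebpa, the factor that commits cells to the granulocyte line, was at 22.4, 24.4 and 25.9 CPM in WT and 21.6, 2.88 and 3.71 CPM in KO replicates 1, 2 and 3. It did not pass the test with all libraries (log2 fold change -1.27, QLF FDR = 0.235), and without KO replicate 1 it was called lower (-2.81, FDR = 0.000144), which was the 1 of 13 alternatives that called it. Cebpe, which drives specific granule genes, had 0 counts in WT and 33, 0 and 2 in KO, and Fcnb (ficolin B) 0 in WT and 51, 0 and 1 in KO. Prss57, another serine protease of the azurophil granule, had 0 counts in WT and 5, 1 and 3 in KO, and Bpi, a bactericidal protein, was at 0 throughout. For the 8 genes with enough counts, the median ratio of KO replicate 3 to KO replicate 1 was 0.0503. These genes were split. Of the 8, 5 had ratios under 0.1, Mgst1, Clec12a and Csf3r among them, whereas Gfi1 was at 0.995 and Myb at 1.19. The median of the 5 azurophil genes was 1.78. They were chosen by this contrast, so the difference between the medians is a description with no test.

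The proteases are made as inactive forms that cathepsin C (Ctsc) trims, are stored on the proteoglycan serglycin (Srgn), and are held in check by serpins and Slpi. Of these 6 genes, 4 were tested and 2 were called higher, with a median log2 fold change of 1.08. Srgn was at 377, 440 and 474 CPM in WT and, in KO, at 646, 558 and 527 CPM. It rose by 0.51 on the log2 scale (SE 0.13, QLF FDR = 0.0373), and 4 of 13 alternatives called it (FDR 0.00352 to 0.118). Without KO replicate 1 it was not called (QLF FDR = 0.071). Serpinb6a, an inhibitor of cathepsin G, was called higher too (log2 fold change 0.73, QLF FDR = 0.0355), in 9 of 13 alternatives (FDR 0.0034 to 0.13). Both genes are also made by lymphocytes. Ctsc was at 65.1, 56.9 and 52.4 CPM in WT and 276, 70.2 and 97.6 CPM in KO and did not pass the test (FDR = 0.073 in QLF), but did without KO replicate 1 (log2 fold change 0.60, FDR = 0.027). Slpi, which inhibits elastase and cathepsin G, had 2, 6 and 3 counts in WT and 134, 4 and 19 in KO. Of 13 lysosomal genes that azurophil granules share with other cells, 12 were tested and 1, Arsb (arylsulfatase B), was called higher (log2 fold change 0.87, QLF FDR = 0.0498), in 5 of 13 alternatives (FDR 0.00501 to 0.158). The background, 11.6% of all genes called higher, is near the 1 of 12 here.

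Markers of other cells that could lie in the sort were counted in the same QLF fit. Of the 10 specific granule genes 0 were tested, since 0 had 3 libraries above 1 CPM, and of 20 mature neutrophil genes in the matrix 5 were tested and 2, Il1r2 and Hdc, were called higher. Il1r2, a decoy receptor for interleukin 1 that Treg cells also express, was at 24.2 to 35.7 CPM in WT and 42.6 to 58.3 CPM in KO (QLF FDR = 0.0264). Hdc, which makes histamine, was at 0.416 to 0.9 CPM in WT and 11.1, 1.01 and 3.71 CPM in KO. It entered the test only through its KO libraries and was not tested without KO replicate 1. Its call is therefore counted in the list but is no support for a difference. Of 12 monocyte genes 6 were tested and 3 called higher, of 10 red pulp macrophage genes 3 and 2, of 9 B cell genes 2 and 0, and of 8 CD8 T and NK genes 4 were tested, with 1 higher and 1 lower. Of 12 progenitor genes 5 were tested and 2 were called higher, of 8 erythroid genes 2 and 1, of 14 eosinophil, basophil and mast cell genes 1 and 0, and of 10 Treg and CD4 T cell genes 10 and 1 (Il2ra). The called genes include Fn1 (monocyte), Meis1 (progenitor) and Car1 (erythroid), which like Hdc entered the test only through their KO libraries. Their calls are likewise no support for a difference. Without KO replicate 1, 9.69% of 11429 tested genes were called higher and 7.59% lower, and the monocyte, progenitor, red pulp macrophage and mature neutrophil lists had 3, 2, 2 and 2 genes called higher. These were not all the genes called with it, since Fn1, Meis1 and Hdc were no longer tested and Ctss, Irf8 and Mmp9 were now called.

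The progenitor list was mixed in its order among KO libraries. Kit, the stem cell factor receptor, was at 1.29 to 1.83 CPM in WT and 6.72, 4.68 and 6.41 CPM in KO and rose by a log2 fold change of 1.95 (QLF FDR = 0.00369). Meis1, a factor of stem and progenitor cells, had 6, 6 and 2 counts in WT and 36, 20 and 31 in KO. It is the other called gene of this list, but it entered the test only through its KO libraries and could not be fitted without KO replicate 1. Gata2 had 0, 1 and 0 counts in WT and 13, 4 and 17 in KO, and Cd34 1, 0 and 0 in WT and 5, 2 and 10 in KO. On the CPM scale Meis1, Gata2 and Cd34 were highest in KO replicate 3 and lowest in KO replicate 2, as Mpo was, though on few counts. Their ratios of KO replicate 3 to KO replicate 1 were 1.08 (0.646 to 1.8), 1.64 (0.751 to 3.67) and 2.51 (0.782 to 9.36). As these intervals include 1, the order of those libraries was not resolved. Of the 12 progenitor genes 7 were highest in KO replicate 1, Kit among them, and 3 in KO replicate 3. Flt3, also a progenitor gene, had 69, 0 and 4 counts in KO. Spi1, which encodes PU.1, had 0, 1 and 0 counts in WT and 1025, 3 and 14 in KO. The progenitor list as a whole summed to 292 CPM in KO replicate 1, 71.9 and 87.1 CPM in KO replicates 2 and 3, and 50.0 to 60.2 CPM in WT. What part these cells or any others had in the azurophil counts was not tested.

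**Figure D4:**
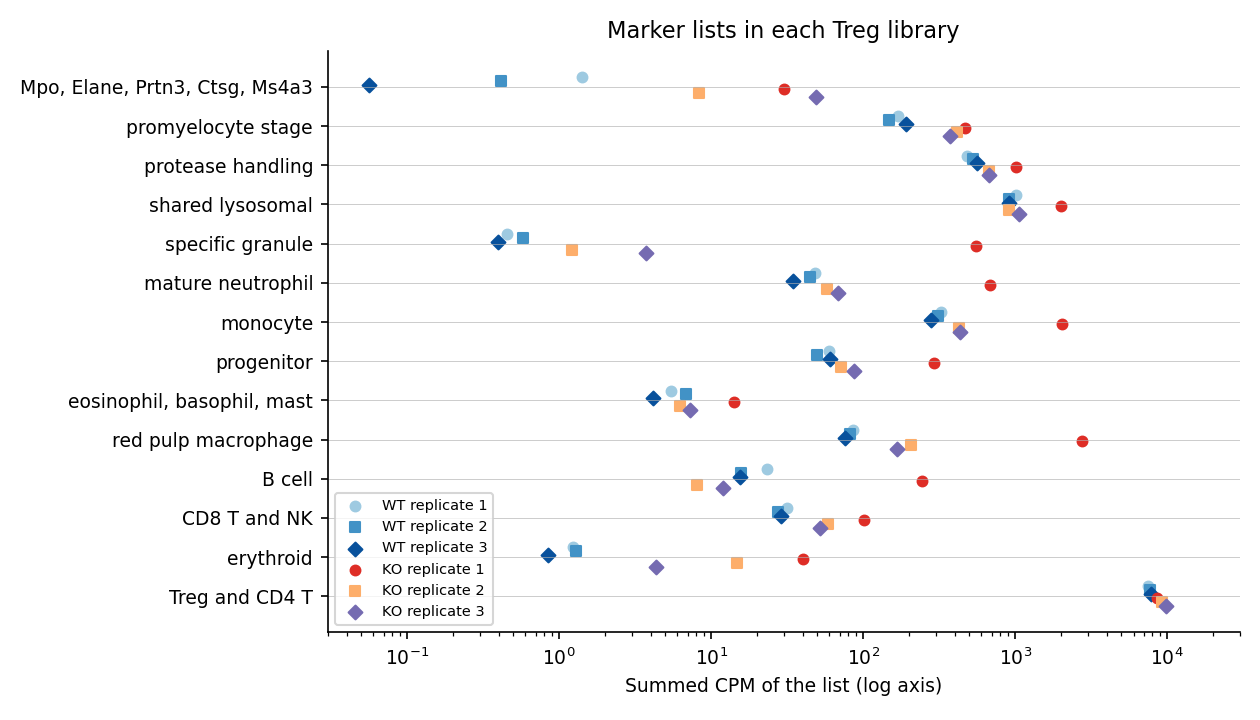
Summed CPM on a log axis of each gene list in each of the 6 libraries. The 5 azurophil genes sum to 49.2 CPM in KO replicate 3 and 30.3 CPM in KO replicate 1, while the specific granule and mature neutrophil lists are highest in KO replicate 1, at 556 and 679 CPM.

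The 13418 genes with at least 30 counts in all were ranked by how near their log2(CPM + 0.5) values, centred on each gene's own mean, lay to those of Mpo over the 6 libraries. The nearest 5 were Cyp11a1 (distance 1.26), Tph1 (1.27), Tmem176a (1.6), Stab1 (1.79) and Tmem176b (1.82). Cyp11a1, the first enzyme of steroid synthesis, had 6, 6 and 4 counts in WT and 267, 163 and 371 in KO, and Tph1, which starts serotonin synthesis, 1, 0 and 1 in WT and 114, 27 and 157 in KO. Among the other azurophil genes, Elane ranked 14, Prtn3 17, Ctsg 37 and Ms4a3 260. S100a8 and S100a9 ranked 12802 and 13070, which follows from how they and the azurophil genes were picked. For Elane the nearest were Mras (0.715), Sh3pxd2b (0.741), Havcr2 (0.788), Gm4951 (0.807) and Fgl2 (0.868), with Prtn3 at rank 29, Ctsg at 100 and Mpo at 216. The ranks of low genes rest on the pseudocount. With 0.1 in its place, Elane, Prtn3 and Ctsg were among the 5 nearest to Mpo, and S100a8 and S100a9 stood at ranks 12165 and 12861. The 5 nearest to Elane were then Fn1, Prtn3, Ccdc102a, Sh3pxd2b and Stab1, with Ctsg at rank 13, Mpo at 14 and Ms4a3 at 52.

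Mpo lies on the same chromosome as Mir142, 36.7 kb from it. Between them lies Bzrap1 (chromosome 11, 87760541 to 87785928), which ends 7.65 kb before Mpo on the same strand. Bzrap1 had 1295, 1292 and 729 counts in WT and 384428, 337391 and 314857 in KO, a log2 fold change of 8.63 (QLF FDR = 0.00011). Its KO levels were 20667, 24302 and 21241 CPM and so spanned 1.18-fold, against 5.37-fold for Mpo, and KO replicate 2, the highest for Bzrap1, was the lowest for Mpo. For every 1000 Bzrap1 counts there were 10, 7.74 and 1.37 Mpo counts in WT and 0.788, 0.243 and 1.49 in KO.

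Beyond Mpo, Lpo (lactoperoxidase), whose nearer end is 2.02 kb away on the opposite strand, had 2, 1 and 0 counts in WT and 1, 0 and 0 in KO. Epx, the eosinophil peroxidase, had at most 5 counts in any library. Mks1 and Supt4a, the next expressed genes on each side, did not pass the test (QLF FDR = 0.154 and 0.0705). Around Elane and Prtn3, Cfd, which encodes complement factor D and lies 2.64 kb beyond Elane, had at most 1 count in any library. Med16, a Mediator subunit, was called higher (log2 fold change 0.56, QLF FDR = 0.0295), and Ptbp1 and R3hdm4 were not called (FDR = 0.654 and 0.412 in QLF). Next to Ctsg, the basophil protease gene Mcpt8 had 17, 0 and 12 counts in KO and 0 in WT, and the granzyme genes Gzme, Gzmd, Gzmg and Gzmn had 0 counts. Elane, Prtn3 and Ctsg, which like Mpo had more counts in each KO library than in any WT library, lie on other chromosomes than Mir142. Whether the Bzrap1 level has any part in the Mpo counts was not tested.

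**Figure D5:**
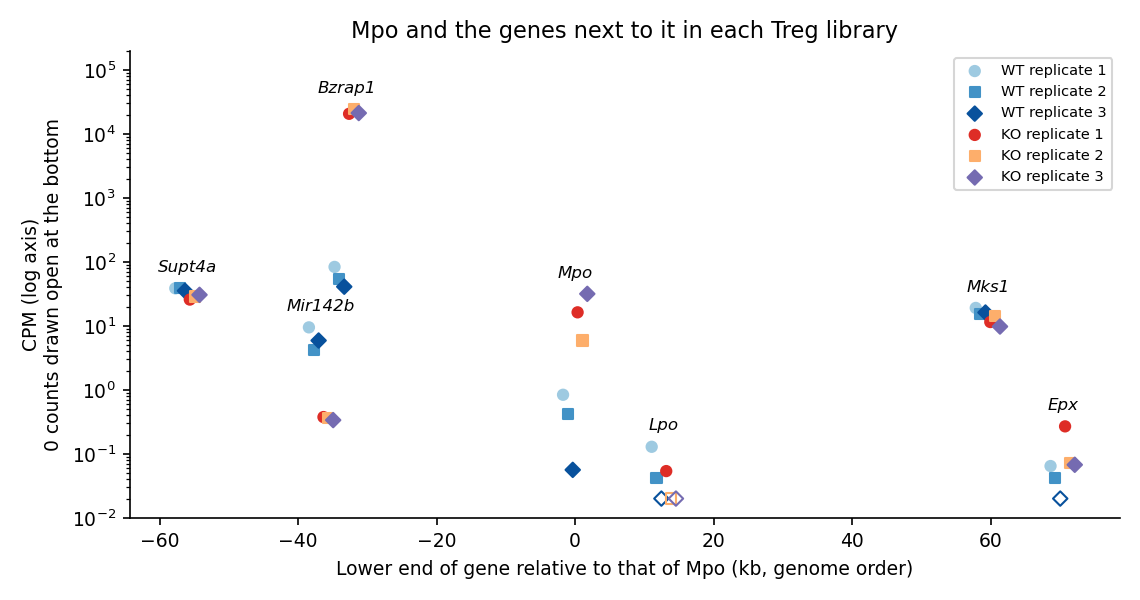
CPM on a log axis of Mpo and the genes around it in each of the 6 libraries, against the distance in kb of the lower end of each gene from that of Mpo. Bzrap1 lies at 20667 to 24302 CPM in the 3 KO libraries, Mpo spans 5.91 to 31.7 CPM in them, and Lpo is at 0.129 CPM or less in every library.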

How the data were processed

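Splenic CD4+YFP+ Treg cells of 3 WT and 3 KO mice were profiled by RNA-seq, with 1 library per mouse. With mice as the replicates, p-values weigh the difference between KO and WT against the spread between these mice. The authors aligned 51-base single-end reads to mm10 with HISAT and counted them on genes with featureCounts without regard to strand, and the deposited matrix holds raw whole-number counts without normalization. Versions and the gene annotation used are not given in the sources used here. All 6 columns were used.

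CPM was computed from total counts. A gene entered the KO against WT fit if 3 or more libraries exceeded 1 CPM, and the fit used TMM and the QLF test of edgeR 4.0.16 under R 4.3.3, with a call at an FDR under 0.05. The steps were tested on simulated data. Intervals on counts are exact 95% intervals from scipy 1.17.1, and 0 counts were given a limit of 3 counts. With 3 mice against 3, an exact two-sided permutation test cannot give a p under 0.1. Positions are those of GRCm38 (the build of mm10) and sequences those of RefSeq.

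The 5 genes and all gene lists were chosen with earlier results of these data known. Named genes were the 5 azurophil genes, S100a8 and S100a9, called or highest genes of each list, neighbouring genes, and the 5 nearest patterns. The remaining genes of lists are named where a count of a list turns on them, and were chosen after their values were seen. Alternatives covered normalization, DESeq2 1.42.0, filter, threshold, a replicate block, the genes in the share, the pseudocount and each library left out. The ratios without KO replicate 1 were added after seeing the data.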

Additional observations from a re-analysis of the deposited data

How the results depend on the processing

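The group means of the 5 azurophil genes moved by less than 1 SD with TMM-adjusted library sizes. With Mpo left out, the enzyme share was 0% in WT replicate 3 (0 of 1 count), 3.08% in KO replicate 1 and 88.6% in KO replicate 3, and stayed at 100% in KO replicate 2. With Ltf, Camp, Ngp and Lcn2 in the denominator WT replicate 1 had 81.5% and WT replicate 2 55.6%, while KO replicates 1, 2 and 3 had 3.55%, 96.6% and 91.9%. The fitted log2 fold change of Mpo lay between 4.95 and 6.13 over the alternatives that tested it. That of Elane lay between 5.51 and 9.26, its highest without WT replicate 1, which holds all its WT counts. With any KO library left out neither gene passed the filter, so these ranges include no such fit.

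The QLF test called 2197 genes, 1350 higher and 847 lower. An FDR under 0.01 left 686 (490 higher, 196 lower), and leaving out each library in turn gave 691 to 2340 genes (483 to 1403 higher, 208 to 937 lower), with the fewest without WT replicate 2. With no TMM factors, 1064 genes were higher and 1201 lower. Of the promyelocyte-stage, protease handling, specific granule and mature neutrophil genes together 5 were called, 3 with library size alone, 3 with no filter, 1 at an FDR under 0.01, and 1 to 6 with a library left out (1 without WT replicate 1 or 2, 2 without WT replicate 3, 3 without KO replicate 3). The 1 lysosomal gene called, Arsb, was not called with RLE factors, library size alone, no filter or filterByExpr. A fit with a library left out also holds fewer samples. The cause of these changes was not tested.

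Samples with the same replicate number did not deviate together (r of 0.0731, -0.0124 and -0.188), and they were not treated as pairs. These values cannot show whether such samples were handled together. A replicate block gave 1061 higher and 545 lower genes. Depth limits the WT values, which rest on at most 13 counts per gene and library.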

Other observations

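Single genes of basophils and erythroid cells, picked after their values were seen, also had more counts in KO libraries than in WT, with orders of their own. Others of the same lists did not, such as Cpa3, a mast cell and basophil protease, with 13, 20 and 11 counts in WT and 12, 2 and 4 in KO. The basophil proteases Mcpt8 and Prss34 had 17, 0 and 12 and 33, 0 and 10 counts in KO replicates 1, 2 and 3, so that KO replicate 2 had neither, although it had 82 Mpo counts. Car1, a carbonic anhydrase of early erythroid cells, had 1, 8 and 0 counts in WT and 99, 158 and 47 in KO, with its highest value in KO replicate 2, the lowest library for Mpo. Alas2, the heme synthesis enzyme of the same list, had 17, 23 and 14 counts in WT and 157, 17 and 16 in KO. Fn1, fibronectin, had 9, 17 and 8 counts in WT and 799, 55 and 281 in KO. Car1 and Fn1 entered the test only through their KO libraries and could not be fitted without KO replicate 1, so their values are given with no test. Both are counted among the called genes of their lists, with this same limit. The part of these genes in the azurophil pattern was not tested.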
